A study of Mus musculus with 11 samples.

Results

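Integrins are the adhesion receptors through which lymphocytes hold on to other cells and to the extracellular matrix. The genes described here are the 18 alpha chains and 8 beta chains of mouse integrins, the talins Tln1 and Tln2, the kindlins Fermt1, Fermt2 and Fermt3, and vinculin (Vcl). They were chosen by gene symbol, and all 32 were found, once each, among 57186 gene entries. The counts come from bulk RNA sequencing of cells sorted from 14-day-old untreated mice of the genotype Cd3giCreRosa26stopZsGreen. Cd3g drives the Cre recombinase in these mice. Cre activity switches on ZsGreen at Rosa26 for good, so ZsGreen marks cells that made Cre and their descendants. Every group carried both alleles. The groups were thymic DN3 cells (n = 3), which are early thymocytes that rearrange the TCR beta gene, ZsGreen-positive lung ILC2 (n = 3) and ZsGreen-negative lung ILC2 (n = 5). ILC2 are group 2 innate lymphoid cells, tissue lymphocytes that secrete type 2 cytokines.

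Total counts were 5951494 to 7745062 in DN3 libraries, 5762491 to 17627469 in ZsGreen-positive and 4495260 to 14424313 in ZsGreen-negative libraries. The DN3 libraries share 1 batch date that no lung library has, and therefore the effects of tissue and of batch cannot be told apart. The lung libraries have 2 batch dates, each with libraries of both lung groups. Most markers went with the labels. Of 10 DN3 markers, 9 were called higher and 1 lower in DN3 cells than in lung ILC2 (edgeR BH-adjusted p under 0.05). Of 12 ILC2 markers, 10 were called lower and 2 higher, while 36.7% of all tested genes were called higher and 42.1% lower. Il2ra and Thy1 are on both lists, so a call of either had to go against a label. Rag1, a recombinase of T and B cell precursors, stood at 1216 to 1310 CPM in DN3 libraries, against 0 to 0.516 CPM over the lung libraries. Il1rl1, the IL-33 receptor of ILC2, had 0 counts in DN3 libraries, against 2556 to 3532 CPM over the lung libraries. CPM here is the count scaled to a common library size, by TMM over all 11 libraries.

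An integrin is a pair of 1 alpha and 1 beta chain. The ligand depends on the pair. Alpha-L beta-2 (LFA-1) binds ICAM proteins, alpha-4 beta-7 binds MAdCAM-1 of gut vessels, and alpha-4 beta-1 binds VCAM-1 and fibronectin. Talin and kindlin bind the cytoplasmic tail of the beta chain and switch the receptor to its high-affinity form, and vinculin ties talin to actin.

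The talin and kindlin contacts lie in a pair of NPxY-type motifs near the end of the beta chain. The last 138 coding bases, stop codon included, are shown for the 4 beta chains with the largest share of the beta-chain level in lung ILC2. Itgb4, with 22.8% of that level in DN3 cells, is not among them. The sequences are from GENCODE M21 transcripts (GRCm38) of genes on chromosomes 8, 10, 11 and 15. Capitals mark both motifs, the talin site first and the kindlin site second.
Itgb1: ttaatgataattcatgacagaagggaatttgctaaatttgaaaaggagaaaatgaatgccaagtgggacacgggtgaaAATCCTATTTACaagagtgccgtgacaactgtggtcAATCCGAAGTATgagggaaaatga
Itgb2: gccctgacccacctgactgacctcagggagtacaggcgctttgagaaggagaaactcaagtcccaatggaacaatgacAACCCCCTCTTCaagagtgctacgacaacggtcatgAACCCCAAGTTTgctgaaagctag
Itgb3: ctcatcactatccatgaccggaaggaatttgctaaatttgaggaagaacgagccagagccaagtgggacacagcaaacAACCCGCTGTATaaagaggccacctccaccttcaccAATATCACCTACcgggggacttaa
Itgb7: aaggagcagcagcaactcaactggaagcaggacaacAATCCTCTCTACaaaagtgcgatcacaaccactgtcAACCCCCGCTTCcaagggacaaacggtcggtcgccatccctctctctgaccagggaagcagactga
In each of the 4 sequences 24 bases separate the motifs. Over the 48 bases from the first motif to the end of the second, 31 were identical between Itgb1 and Itgb7, 33 between Itgb1 and Itgb2, and 23 between Itgb1 and Itgb3. After the second motif Itgb7 has 17 codons before the stop, where the other chains shown have 3.

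The RNA levels of the chains differed between the thymic and the lung cells. Levels of different genes are set side by side only as CPM per kilobase of transcript. Summed over the beta chains, the level was 86.0 ± 1.86 CPM per kilobase in DN3 cells (SD, n = 3), against 734 ± 79.6 in ZsGreen-positive (SD, n = 3) and 673 ± 36.7 in ZsGreen-negative ILC2 (SD, n = 5). The alpha chains summed to 143 ± 5.37 CPM per kilobase in DN3 cells, against 308 ± 31.3 in ZsGreen-positive and 295 ± 13.9 in ZsGreen-negative ILC2. Ranges of the DN3 and lung libraries did not overlap in either sum.

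Among beta chains, Itgb1 held 61.1% ± 0.622 of the summed level in DN3 cells, against 9.50% ± 0.840 in ZsGreen-positive and 9.38% ± 0.906 in ZsGreen-negative ILC2. Itgb4 followed in DN3 cells with 22.8% ± 1.17, and held under 0.1% in every lung library. Itgb7 held 1.39% ± 0.416 in DN3 cells, against 60.7% ± 2.74 in ZsGreen-positive and 56.0% ± 3.07 in ZsGreen-negative ILC2. The share of Itgb2 was 12.4% ± 1.87 in DN3 cells, 18.4% ± 0.909 in ZsGreen-positive and 19.1% ± 1.79 in ZsGreen-negative ILC2. By RNA per kilobase, Itgb1 thus held most of the beta-chain level in DN3 cells, and Itgb7 most of it in lung ILC2. Without division by length Itgb7 held 51.0% in ZsGreen-positive and 45.2% in ZsGreen-negative ILC2. Protein of the chains and their pairing were not measured. The share of Itgb3 was 9.92% to 12.2% in the ZsGreen-positive libraries, below the 14.1% to 17.5% of the ZsGreen-negative libraries.

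Among alpha chains, Itgal and Itga4 together led in DN3 cells. Itgal, the alpha chain of LFA-1, held 41.6% ± 1.32 in DN3 cells, against 60.7% ± 3.72 in ZsGreen-positive and 62.2% ± 2.44 in ZsGreen-negative ILC2. The share of Itga4 was 36.7% ± 1.48 in DN3 cells, against 14.7% ± 0.724 in ZsGreen-positive and 14.2% ± 1.04 in ZsGreen-negative ILC2. Itgav, the alpha-v chain, held 1.38% ± 0.0595 in DN3 cells, against 11.8% ± 3.19 and 11.5% ± 1.99 in ZsGreen-positive and ZsGreen-negative ILC2. Without division by length the order turned in places: in DN3 cells Itga4 held 53.1% and Itgal 32.04%, and Itgb3 and Itgb2 held 20.2% and 17.1% in ZsGreen-positive and 26.7% and 17.1% in ZsGreen-negative ILC2. These shares are descriptions and were not tested.

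**Figure D1:**
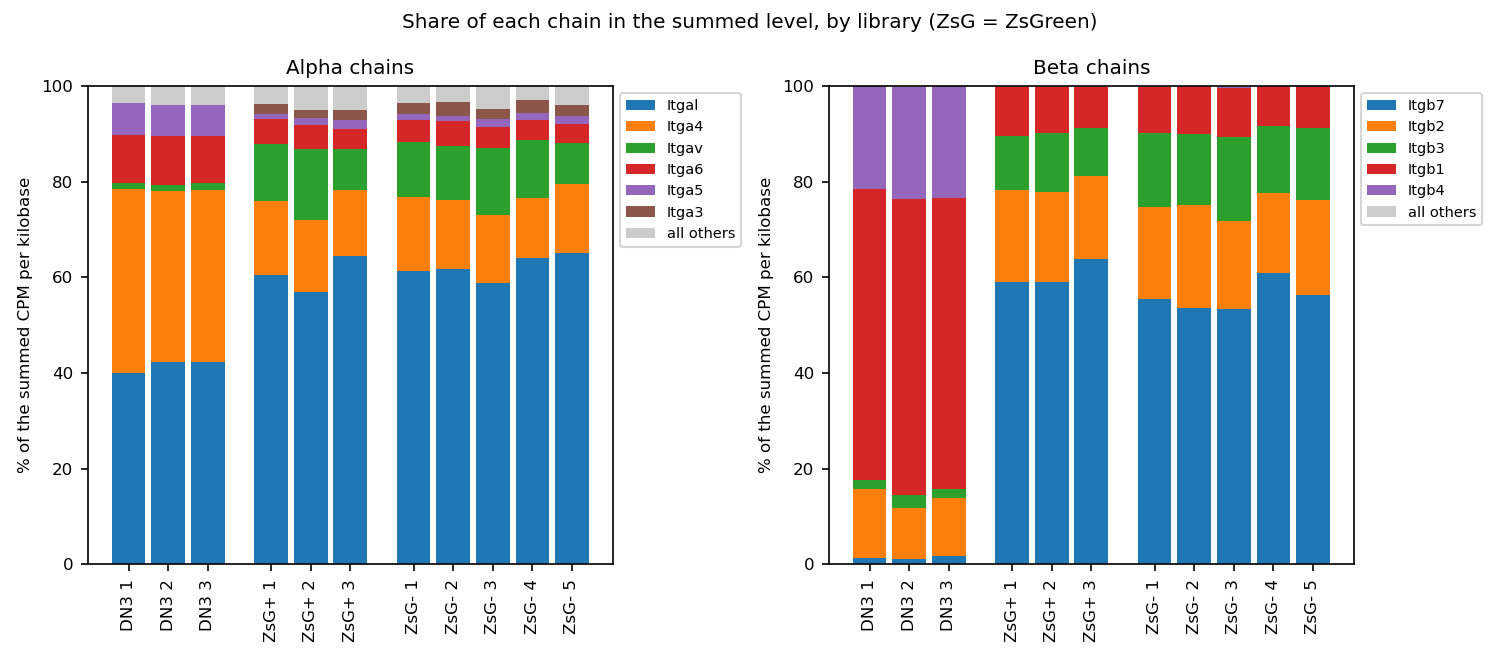
Share of each integrin chain in the summed CPM per kilobase (y axis, %) of the alpha chains (left) and of the beta chains (right), 1 stacked bar per library, DN3 libraries first, then ZsGreen-positive and ZsGreen-negative ILC2. Itgb1 and Itgb4 fill most of the DN3 beta-chain bars, at 61.1% and 22.8% on average, while Itgb7 fills most of the lung bars, at 60.7% and 56.0%.

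The order of levels also differed. In DN3 cells Fermt3 led with 95.2 ± 3.95 CPM per kilobase, followed by Itgal with 59.3 ± 0.576. Itgb1, Itga4 and Tln1 came next, at 52.6 ± 1.13, 52.4 ± 4.06 and 51.9 ± 0.718 CPM per kilobase, and these 3 overlapped over libraries. In ZsGreen-positive ILC2 the order was Itgb7 (447 ± 69.7), Itgal (186 ± 7.69), Fermt3 (143 ± 10.7), Itgb2 (135 ± 7.70), Tln1 (113 ± 6.10) and Itgb3 (81.5 ± 2.99 CPM per kilobase), where Fermt3 and Itgb2 overlapped. In ZsGreen-negative ILC2 it was Itgb7 (378 ± 41.9), Itgal (183 ± 6.91), Fermt3 (153 ± 9.74), Itgb2 (128 ± 8.79), Itgb3 (103 ± 5.93) and Tln1 (101 ± 10.7 CPM per kilobase), where Itgb3 and Tln1 overlapped.

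**Figure D2:**
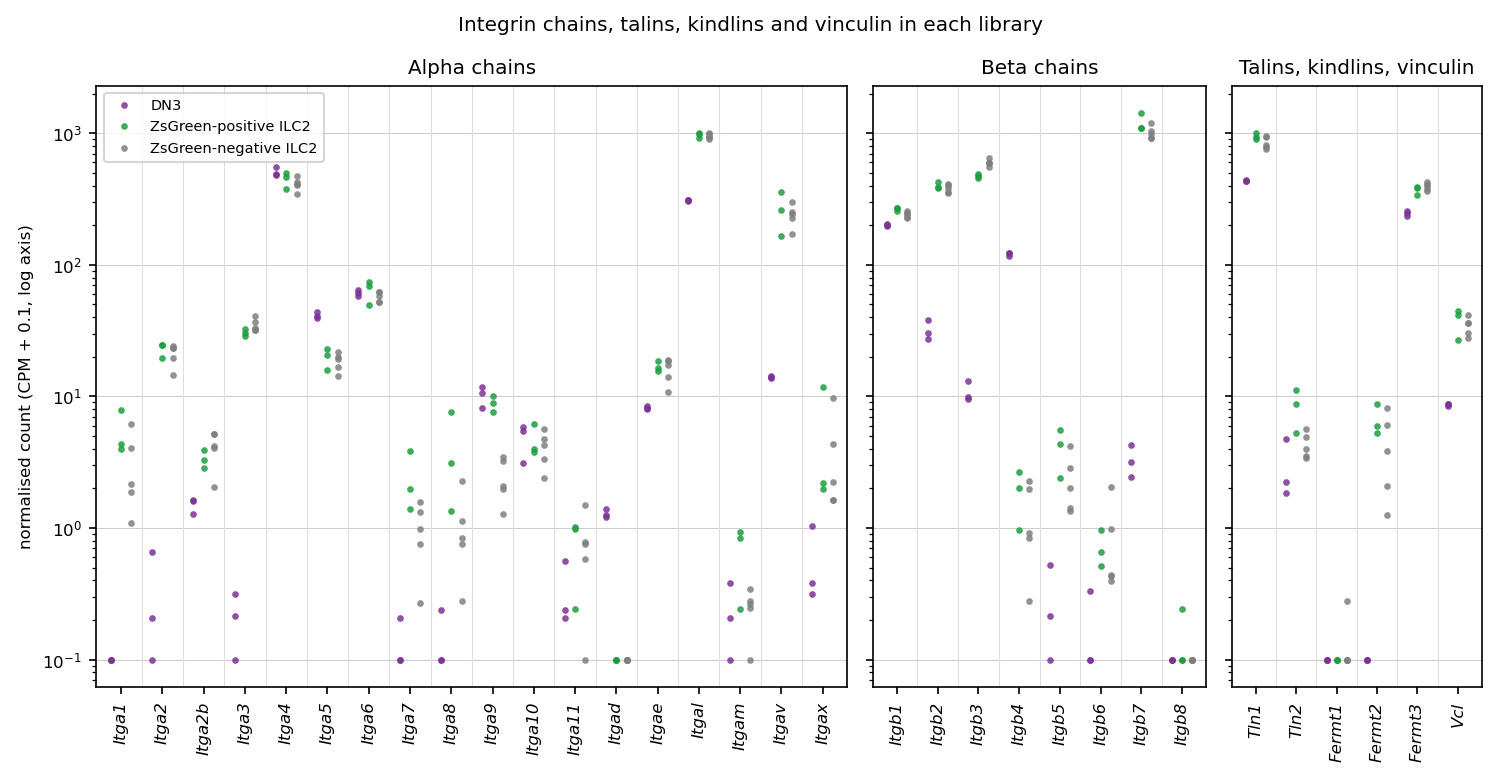
Level of each of the 32 genes in each library, as CPM plus a small constant on a log axis, with DN3 libraries in purple, ZsGreen-positive ILC2 in green and ZsGreen-negative ILC2 in grey. Itgb7, Itgb3, Itga2 and Itga3 stand far lower in DN3 libraries than in lung libraries, and Itgb4 far higher.

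The first comparison set DN3 cells against all 8 lung ILC2 libraries, for how these cell types differ in RNA of adhesion receptors. Of the 32 genes, 25 passed the filter on low counts. Of these 25, 4 were called higher in DN3 cells (Itgb4, Itga9, Itga5 and Itga4), 19 were called lower, and Itga6 and Itga10 were not called (edgeR quasi-likelihood, BH-adjusted p under 0.05). In this comparison 78.8% of all tested genes were called, with 36.7% higher and 42.1% lower in DN3 cells, so a call by itself says little here. The ranges of the groups did not overlap for 20 of the 25, against 69.3% of all tested genes. The median log2 fold change of the 25 was -1.64, also with genes at 0 counts in DN3 cells set to their bound, against -0.09 over all genes. A gene that passed the filter through 1 group alone had to differ, so this median is a description. In bulk RNA, fewer cells of a type and less RNA per cell cannot be told apart.

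**Figure D3:**
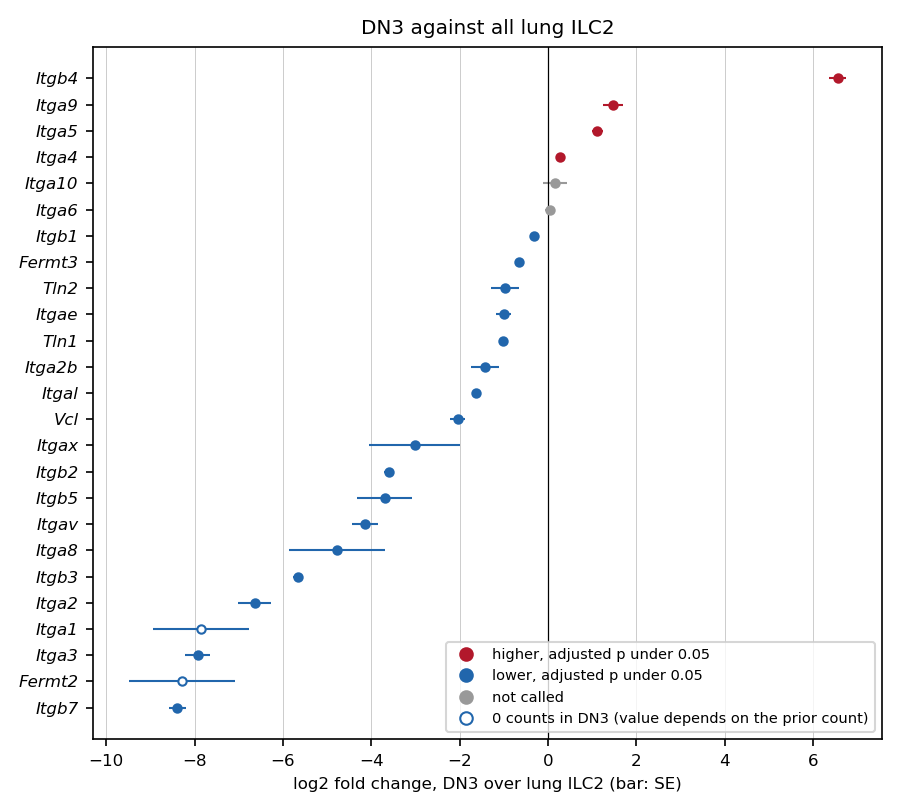
Log2 fold change of DN3 cells over all lung ILC2 for the 25 genes that passed the filter, sorted by size, with bars for the SE. Itgb4 lies at 6.56 and Itgb7 at -8.39, the 2 ends of the plot, while Itga6 lies at 0.05, and open circles mark Itga1 and Fermt2, which had 0 counts in DN3 cells.

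Itgb7 (ENSMUSG00000001281), the beta chain of alpha-4 beta-7 and alpha-E beta-7, stood at 3.09, 2.36 and 4.19 CPM in DN3 libraries 1 to 3, against 921, 1063 and 1415 CPM (lowest, median and highest) over the lung libraries. It was 336-fold lower in DN3 cells (log2 fold change -8.39 ± 0.19 (SE), edgeR BH-adjusted p = 3.41e-20). Itga4 (ENSMUSG00000027009), which pairs with Itgb7 and with Itgb1, showed no such gap, at 557, 492 and 485 CPM in DN3 libraries, against 346, 417 and 495 CPM (lowest, median and highest) over the lung libraries. The groups overlapped for Itga4, and the log2 fold change was 0.27 ± 0.09 (SE, edgeR BH-adjusted p = 0.0113). That call was lost without DN3 library 1, the highest, at 0.21 ± 0.11 (edgeR BH-adjusted p = 0.0956), and against ZsGreen-positive ILC2 alone, at 0.20 ± 0.11 (edgeR BH-adjusted p = 0.115). Itgb1, the other partner of Itga4, was close between the groups, at 205, 201 and 196 CPM in DN3 libraries, against 228, 250.2 and 271 CPM (lowest, median and highest) over the lung libraries. It was lower in every DN3 library, at a log2 fold change of -0.31 ± 0.07 (SE, edgeR BH-adjusted p = 0.000379). RNA of both beta partners of alpha-4 was thus abundant in lung ILC2, and that of Itgb1 alone in DN3 cells. Itgae, the alpha-E chain, which pairs with beta-7 and binds E-cadherin, stood at 7.87, 8.04 and 8.39 CPM in DN3 libraries, against 10.7, 16.8 and 18.9 CPM over the lung libraries. It was 2.00-fold lower without overlap (edgeR BH-adjusted p = 1.34e-05).

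The LFA-1 chains were lower in DN3 cells to unequal degrees. Itgal stood at 309, 309.99 and 304 CPM in DN3 libraries, against 909, 958 and 1002 CPM over the lung libraries, a log2 fold change of -1.64 ± 0.08 (SE, edgeR BH-adjusted p = 2.46e-14). For Itgb2, its partner, the values were 37.9, 27.4 and 30.2 CPM in DN3 libraries, against 349, 387 and 426 CPM over the lung libraries, a log2 fold change of -3.61 ± 0.11 (SE, edgeR BH-adjusted p = 4.53e-18). Neither chain overlapped between the groups. Itgb2 also pairs with Itgam, Itgax and Itgad, the myeloid alpha chains. Itgax, the alpha chain of CD11c, was low and uneven, at 0.281, 0.214 and 0.932 CPM in DN3 libraries, against 1.54, 2.11 and 11.8 CPM over the lung libraries. It was lower in every DN3 library and called lower (edgeR BH-adjusted p = 0.0209), a call lost without DN3 library 1 (edgeR BH-adjusted p = 0.0691) or DN3 library 2 (edgeR BH-adjusted p = 0.0795). Itgax passed the filter through lung libraries alone, so its call is a description. Markers of macrophages, monocytes and dendritic cells, 17 genes, summed to 17.4 to 19.4 CPM in DN3 libraries with 7 genes at 0, against 61.8 to 262 CPM over the lung libraries with none at 0, and their part in the Itgax result was not tested.

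The vitronectin receptor chains, alpha-v and beta-3, were scarce in DN3 cells. Itgb3 (ENSMUSG00000020689) stood at 9.84, 12.97 and 9.44 CPM in DN3 libraries, against 453, 573 and 649.8 CPM (lowest, median and highest) over the lung libraries, 50.5-fold lower (log2 fold change -5.66 ± 0.12 (SE), edgeR BH-adjusted p = 1.29e-20). Itgav stood at 13.9, 13.7 and 14.1 CPM in DN3 libraries, against 165, 248 and 355 CPM over the lung libraries, 17.6-fold lower (log2 fold change -4.14 ± 0.30 (SE), edgeR BH-adjusted p = 5.71e-07). Both were separate between the groups, and Itgav spread more over the lung libraries than Itgb3. Itga2b, the platelet partner of beta-3, stayed at or under 5.10 CPM in every library. Platelet and megakaryocyte markers, 10 genes, summed to 2.36 to 2.67 CPM in DN3 libraries, against 7.13 to 11.4 CPM over the lung libraries, and the 1 of them tested was called lower in DN3 cells (log2 fold change -1.46). The platelet granule genes Pf4 and Ppbp had 0 counts in DN3 libraries and 4 counts each over all lung libraries. The part of such cells in the Itgb3 result was not tested.

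The collagen- and laminin-binding chains showed the widest range among alpha chains. Itga2, the alpha chain of the collagen receptor alpha-2 beta-1, had 5 counts over the DN3 libraries (0.562, 0.107 and 0 CPM). It stood at 14.5, 23.1 and 24.3 CPM over the lung libraries, and was lower in DN3 cells (log2 fold change -6.64 ± 0.37 (SE)). Itga2 passed the filter through lung libraries alone and had to differ, so its fold is a description. Itga3, a laminin receptor chain, had 3 counts over the DN3 libraries (0, 0.214 and 0.116 CPM), against 28.6, 32.2 and 41.0 CPM over the lung libraries. Over summed counts it was 269-fold lower in DN3 cells, with a 95% interval from 91.9 to 1306 for counting error only (exact binomial). Itga1, another collagen receptor chain, had 0 counts in all DN3 libraries, against 0.9901, 3.93 and 7.74 CPM over the lung libraries, and was at least 30.1-fold lower, taking 3 counts over the DN3 libraries as the floor. Itga6, the laminin receptor chain that pairs with beta-1 and beta-4, stood at 64.4, 61.3 and 57.9 CPM in DN3 libraries, against 49.2, 59.996 and 73.9 CPM over the lung libraries. It overlapped fully and was not called (log2 fold change 0.05 ± 0.11 (SE), edgeR BH-adjusted p = 0.703).

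Itgb4 (ENSMUSG00000020758), which pairs with alpha-6 and is best known from epithelia, had the largest rise in DN3 cells among the 25 genes tested. It stood at 116, 124 and 122 CPM in DN3 libraries, against 0.178, 1.38 and 2.58 CPM (lowest, median and highest) over the lung libraries. The rise was 94.04-fold (log2 fold change 6.56 ± 0.19 (SE), edgeR BH-adjusted p = 3.88e-16). The epithelial genes Cdh1, at 29.2 to 34.8 CPM, and Epcam, at 32.6 to 39.5 CPM in DN3 libraries, were also above their lung ranges of 3.92 to 19.1 and 11.6 to 16.3 CPM. They are 2 of 4 genes called higher in DN3 cells in a list of 32 lung structural cell markers. Of the 28 markers tested, 21 were called lower, while 36.7% of all tested genes were higher and 42.1% lower. The lung epithelial genes Sftpa1, Sftpd, Scgb1a1 and Cldn18 had 0 counts in DN3 libraries, and Sftpc stood at 0 to 0.281 CPM there. Genes of thymic epithelium, looked up after these values were seen, were at or near 0: Foxn1, Krt5 and Krt14 had 0 counts in every DN3 library, and Psmb11 had 2 counts over the DN3 libraries. The part of other cells in the Itgb4 level was not tested.

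Itga5, the fibronectin receptor chain, stood at 43.4, 40.6 and 39.5 CPM in DN3 libraries, against 14.3, 19.4 and 23.0 CPM over the lung libraries, 2.18-fold higher without overlap (log2 fold change 1.12 ± 0.12 (SE), edgeR BH-adjusted p = 1.53e-08). Itga9 (ENSMUSG00000039115), whose product pairs with beta-1 and binds tenascin-C and VCAM-1, stood at 8.01, 10.6 and 11.6 CPM in DN3 libraries, against 1.18, 3.27 and 10.1 CPM over the lung libraries (log2 fold change 1.47 ± 0.23 (SE), edgeR BH-adjusted p = 5.22e-06). The overlap came from the ZsGreen-positive libraries. Against ZsGreen-positive ILC2 alone the Itga9 log2 fold change was 0.19 ± 0.26 (SE, edgeR BH-adjusted p = 0.525), and against ZsGreen-negative ILC2 alone it was 2.23 ± 0.27 (SE, edgeR BH-adjusted p = 1.49e-07). Both comparisons share the DN3 libraries.

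The abundant cytoplasmic partners, Tln1 and Fermt3, were lower in DN3 cells by moderate amounts, and so was Vcl. Tln1, the talin of most tissues and of blood cells, stood at 429.8, 442 and 434 CPM in DN3 libraries, against 752, 917 and 1003 CPM over the lung libraries (log2 fold change -1.02 ± 0.09 (SE), edgeR BH-adjusted p = 7.41e-10). Fermt3, the kindlin of blood cells, stood at 256, 247 and 236 CPM in DN3 libraries, against 339, 387 and 427 CPM over the lung libraries (log2 fold change -0.65 ± 0.08 (SE), edgeR BH-adjusted p = 1.2e-07). Vcl stood at 8.29, 8.68 and 8.74 CPM in DN3 libraries, against 26.8, 36.2 and 44.5 CPM over the lung libraries, 4.10-fold lower (edgeR BH-adjusted p = 3.78e-10). None of these genes overlapped between the groups.

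The other kindlins and talin were scarce. Fermt2, the kindlin of most tissues outside blood, had 0 counts in every DN3 library, against 1.16, 5.55 and 8.62 CPM over the lung libraries, at least 43.6-fold lower by the same floor. Tln2 stood at 4.64, 2.14 and 1.75 CPM in DN3 libraries, against 3.30, 4.99 and 11.1 CPM over the lung libraries, with overlap (log2 fold change -0.97 ± 0.31 (SE), edgeR BH-adjusted p = 0.00659). The Tln2 call was lost without DN3 library 2 (edgeR BH-adjusted p = 0.0525), without DN3 library 3 (edgeR BH-adjusted p = 0.0639) and against ZsGreen-negative ILC2 alone (-0.59 ± 0.33 (SE), edgeR BH-adjusted p = 0.111). Fermt1, the epithelial kindlin, had 1 count over all 11 libraries. Lung structural cell markers, 32 genes, summed to 236 to 266 CPM in DN3 libraries, against 522 to 3282 CPM over the lung libraries. Of these markers 8, among them Eln, Pdgfra and Acta2, had 0 counts in DN3 libraries, and those called higher there were Cdh1, Epcam, Pecam1 and Pdgfrb. The part of such cells in the lung levels of Fermt2, Itga1 and Itga8 was not tested.

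Set against each lung group, 21 of the 25 genes were called against ZsGreen-positive ILC2, 2 higher and 19 lower in DN3 cells, where 75.1% of all tested genes were called, 34.8% higher and 40.3% lower. Ranges did not overlap for 21 of the 25, against 78.2% of all tested genes. Against ZsGreen-negative ILC2, 22 were called, 4 higher and 18 lower in DN3 cells, where 76.7% of all tested genes were called, 35.5% higher and 41.2% lower. Ranges did not overlap for 22 of the 25, against 73.9% of all tested genes. Both comparisons share the DN3 libraries.

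The second comparison was within the lung, between ZsGreen-positive ILC2 and ZsGreen-negative ILC2, for whether cells that carry the Cd3g-driven label use other adhesion receptors than those that do not. Of the 25 genes that passed the filter, 3 were called higher in ZsGreen-positive ILC2 (Itga9, Itga8 and Tln2), 1 was called lower (Itgb3) and 21 were not called, while 4.52% of all tested genes were called by the same rule, 2.35% higher and 2.18% lower. The ranges of the groups did not overlap for Itga9 and Itgb3, 2 of the 25, against 10.2% of all tested genes. The median log2 fold change of the 25 genes was 0.16, against 0.00 over all genes. Itgb3 was the only one of the 6 alpha and beta chains with the highest level per kilobase in ILC2 (Itgb7, Itgal, Itgb2, Itgb3, Itgb1 and Itga4) that was called.

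**Figure D4:**
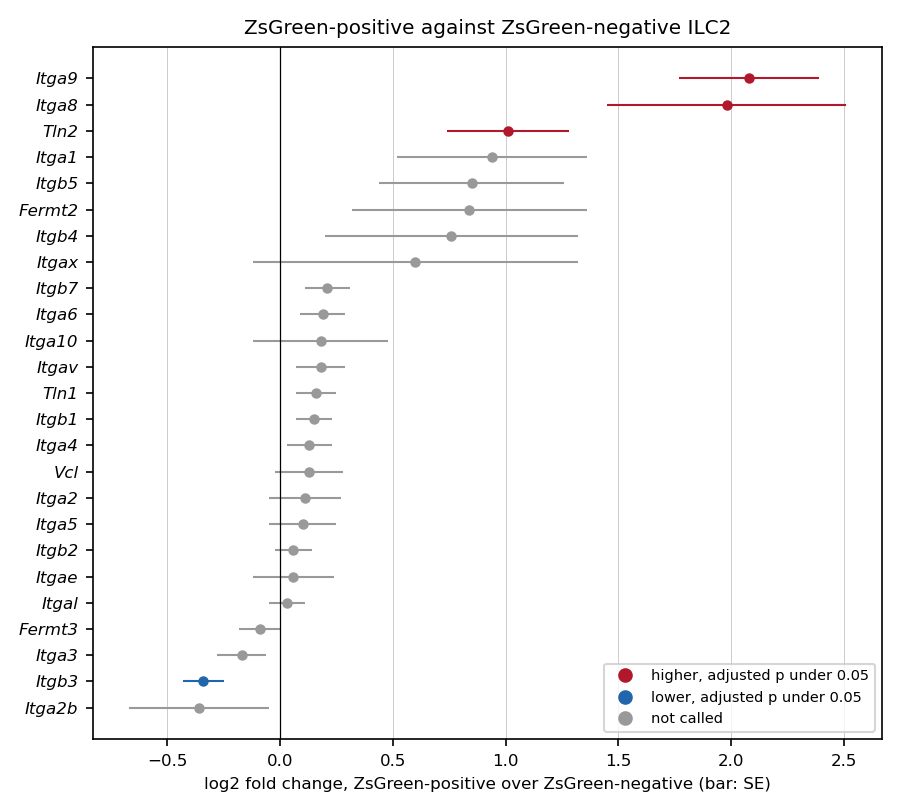
Log2 fold change of ZsGreen-positive over ZsGreen-negative ILC2 for the 25 genes that passed the filter, sorted by size, with bars for the SE. Itga9 lies at 2.08 and Itga8 at 1.98 on the high side, Itgb3 at -0.34 on the low side, and the abundant Itgal at 0.03.

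Itga9 stood at 7.51, 8.84 and 10.1 CPM in ZsGreen-positive libraries, against 1.89, 3.39, 3.16, 1.98 and 1.18 CPM in ZsGreen-negative libraries 1 to 5. Every ZsGreen-positive library was above every ZsGreen-negative one. The gene rose 4.23-fold (log2 fold change 2.08 ± 0.31 (SE), edgeR BH-adjusted p = 0.000508). By batch, Itga9 averaged 8.18 CPM in ZsGreen-positive and 2.60 CPM in ZsGreen-negative libraries of September 2024, and 10.1 and 1.18 CPM in the single ZsGreen-positive and ZsGreen-negative library of April 2025.

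Itgb3 stood at 453, 487 and 474 CPM in ZsGreen-positive libraries, against 594, 554, 649.8, 593 and 596 CPM in ZsGreen-negative libraries. Every ZsGreen-positive library was below every ZsGreen-negative one, by a small amount. The fall was 1.26-fold (log2 fold change -0.34 ± 0.09 (SE), edgeR BH-adjusted p = 0.0284). By batch it averaged 469.9 CPM in ZsGreen-positive and 598 CPM in ZsGreen-negative libraries of September 2024, and 474 and 596 CPM in those of April 2025. The call was lost without ZsGreen-positive library 1 (edgeR BH-adjusted p = 0.149), 2 (0.0725) or 3 (0.102), and without ZsGreen-negative library 1 (0.0583) or 5 (0.119), while the log2 fold change stayed between -0.45 and -0.31 over 18 alternatives. Cpa3, one of 12 mast cell and basophil markers, went the same way, at 90.05 to 131 CPM in ZsGreen-positive and 139 to 237 CPM in ZsGreen-negative libraries. The summed level of that list was 684 to 819 CPM in ZsGreen-positive and 875 to 1044 CPM in ZsGreen-negative libraries. Most of that sum was Kit, which overlapped, at 567 to 661 and 599 to 761 CPM in the same groups. Of 5 listed markers tested, 1 was called lower in ZsGreen-positive ILC2 and 0 higher, while 2.18% of all tested genes were lower. Their median log2 fold change was -0.20. The listed mast cell proteases Tpsb2 and Mcpt4 had 0 counts in both groups, and the part of such cells in the Itgb3 result was not tested.

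The calls of Itga8 and Tln2 rested on fewer reads. Itga8 (ENSMUSG00000026768), which pairs with beta-1 and binds nephronectin, stood at 3.03, 7.55 and 1.25 CPM in ZsGreen-positive libraries, against 1.03, 0.178, 2.19, 0.660 and 0.735 CPM in ZsGreen-negative libraries (log2 fold change 1.98 ± 0.53 (SE), edgeR BH-adjusted p = 0.0393). The groups overlapped, and ZsGreen-positive library 2 stood highest. Without that library the log2 fold change was 1.31 ± 0.59 (SE, edgeR BH-adjusted p = 0.348). The call was also lost without ZsGreen-positive library 1 (edgeR BH-adjusted p = 0.0503) and without ZsGreen-negative library 1 (0.0955), 2 (0.0559) or 4 (0.0831), and without ZsGreen-negative library 3 the gene did not pass the filter. By batch Itga8 averaged 5.29 CPM in ZsGreen-positive and 1.01 CPM in ZsGreen-negative libraries of September 2024, and 1.25 and 0.735 CPM in those of April 2025.

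Tln2 (ENSMUSG00000052698) stood at 11.1, 5.16 and 8.68 CPM in ZsGreen-positive libraries, against 4.81, 5.53, 3.40, 3.30 and 3.90 CPM in ZsGreen-negative libraries (log2 fold change 1.01 ± 0.27 (SE), edgeR BH-adjusted p = 0.0369). ZsGreen-positive library 2 fell within the ZsGreen-negative range. By batch Tln2 averaged 8.14 CPM in ZsGreen-positive and 4.26 CPM in ZsGreen-negative libraries of September 2024, and 8.68 and 3.90 CPM in those of April 2025. The call was lost without ZsGreen-positive library 1 (edgeR BH-adjusted p = 0.31) or 3 (0.195), and without ZsGreen-negative library 1 (0.0633), 3 (0.0506), 4 (0.0707) or 5 (0.182).

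Lung structural cell markers moved with the same groups. Their summed level was 1354, 1826 and 3282 CPM in ZsGreen-positive libraries 1 to 3, against 935, 704, 1533, 522 and 597 CPM in ZsGreen-negative libraries 1 to 5. Of 27 markers tested, 5 were called higher in ZsGreen-positive ILC2 and 0 lower, while 2.35% of all tested genes were higher and 2.18% lower. Their median log2 fold change was 1.19, and none of the 32 markers was at 0 in either group. With a score of these markers as a term in the fit, the Itga9 log2 fold change was 1.33 ± 0.49 (SE, edgeR BH-adjusted p = 0.443), and 0 of the 25 genes and 46 of all genes were called. In the ZsGreen-positive libraries Itga9 was 7.51 CPM at a marker sum of 1354 CPM, 8.84 CPM at 1826 CPM and 10.1 CPM at 3282 CPM. In the ZsGreen-negative libraries it was 1.98 CPM at 522 CPM, 1.18 CPM at 597 CPM, 3.39 CPM at 704 CPM, 1.89 CPM at 935 CPM and 3.16 CPM at 1533 CPM. Itga9 rose with the marker sum over the ZsGreen-positive libraries and did not follow its order over the ZsGreen-negative libraries. The part of structural cells in the 4 called results was not tested.

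**Figure D5:**
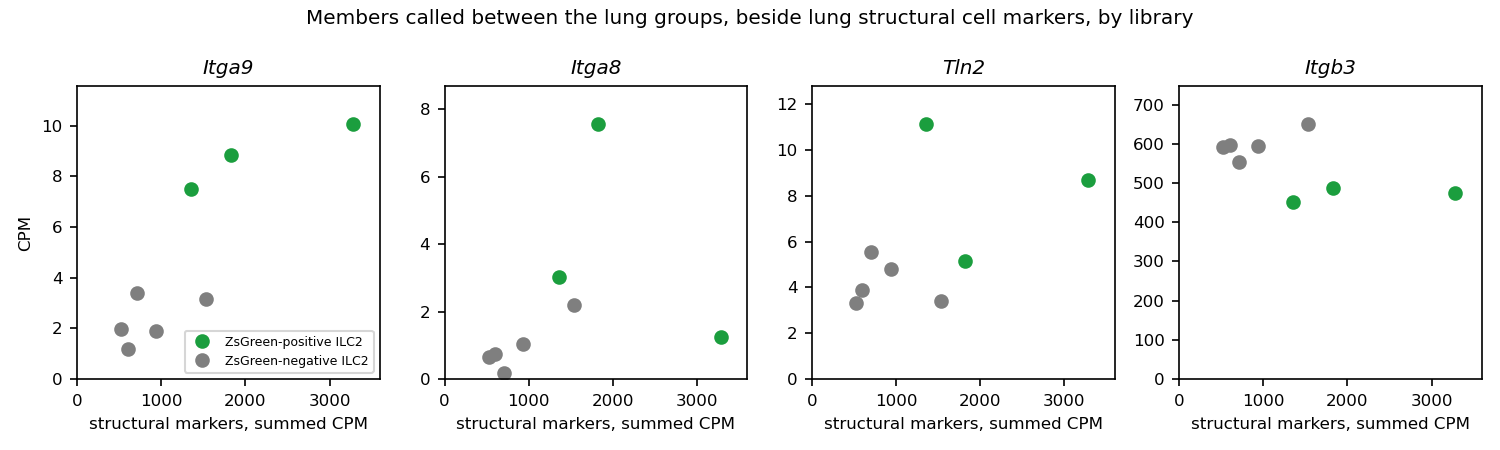
Level of the 4 called genes (y axis, CPM) against the summed level of 32 lung structural cell markers (x axis, CPM), 1 point per lung library, ZsGreen-positive in green and ZsGreen-negative in grey. Itga9 is 7.51 CPM or higher in all ZsGreen-positive libraries and 3.39 CPM or lower in all ZsGreen-negative ones, whereas for Itga8 and Tln2 the groups overlap.

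The abundant chains of lung ILC2 other than Itgb3 were not called between the 2 groups. Itgb7 stood at 1086, 1096 and 1415 CPM in ZsGreen-positive libraries, against 993, 921, 922, 1194 and 1039.7 CPM in ZsGreen-negative libraries (log2 fold change 0.21 ± 0.10 (SE), edgeR BH-adjusted p = 0.324). Itgal stood at 978, 1002 and 924 CPM in ZsGreen-positive libraries, against 998, 909, 935, 938 and 979 CPM in ZsGreen-negative libraries (log2 fold change 0.03 ± 0.08 (SE), edgeR BH-adjusted p = 0.928). For Itgb2 the values were 389, 385 and 426 CPM in ZsGreen-positive and 384, 408, 349, 359.9 and 405 CPM in ZsGreen-negative libraries (edgeR BH-adjusted p = 0.822). Thus both LFA-1 chains overlapped between the groups. Itgb1 stood at 268, 254 and 271 CPM in ZsGreen-positive libraries, against 246, 241, 256, 229 and 228 CPM in ZsGreen-negative libraries (edgeR BH-adjusted p = 0.369). Itga4 stood at 465, 495 and 375 CPM in ZsGreen-positive libraries, against 471, 403, 425, 346 and 409 CPM in ZsGreen-negative libraries (edgeR BH-adjusted p = 0.608). Itgav was the most uneven of the abundant chains, at 262, 355 and 165 CPM in ZsGreen-positive and 253, 227, 300.1, 242 and 172 CPM in ZsGreen-negative libraries (edgeR BH-adjusted p = 0.481). Its lowest level in each group was in the library of April 2025.

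Chains of middle level also overlapped. Itga6 stood at 69.0, 73.9 and 49.2 CPM in ZsGreen-positive libraries, against 62.4, 61.7, 58.3, 51.8 and 51.6 CPM in ZsGreen-negative libraries (edgeR BH-adjusted p = 0.38). Itga3 stood at 32.5, 30.0 and 28.6 CPM in ZsGreen-positive and 32.8, 41.0, 31.8, 36.97 and 31.6 CPM in ZsGreen-negative libraries (edgeR BH-adjusted p = 0.508). Itga2 stood at 19.5, 24.3 and 24.3 CPM in ZsGreen-positive and 23.0, 19.4, 24.04, 14.5 and 23.1 CPM in ZsGreen-negative libraries (edgeR BH-adjusted p = 0.824). None of these laminin and collagen receptor chains was called. Itga5 was 15.9, 20.6 and 23.0 CPM in ZsGreen-positive and 19.1, 14.3, 21.6, 16.5 and 19.7 CPM in ZsGreen-negative libraries (edgeR BH-adjusted p = 0.84). Itgae was 15.6, 18.6 and 16.4 CPM in ZsGreen-positive and 18.9, 13.9, 17.2, 10.7 and 18.5 CPM in ZsGreen-negative libraries (edgeR BH-adjusted p = 0.927).

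Itga1, at 3.90, 7.74 and 4.22 CPM in ZsGreen-positive and 3.95, 1.78, 6.07, 0.9901 and 2.06 CPM in ZsGreen-negative libraries, was not called (log2 fold change 0.94 ± 0.42 (SE), edgeR BH-adjusted p = 0.265). Itgax peaked in 1 library of each group, at 1.88, 11.8 and 2.08 CPM in ZsGreen-positive and 1.55, 2.14, 9.71, 4.29 and 1.54 CPM in ZsGreen-negative libraries (edgeR BH-adjusted p = 0.788). The libraries with the highest Itgax, ZsGreen-positive library 2 and ZsGreen-negative library 3, also had the highest summed level of macrophage, monocyte and dendritic cell markers in their groups, at 262 and 170 CPM. The part of such cells in the Itgax level was not tested. Itgb4 stayed at or under 2.58 CPM in ZsGreen-positive and 2.19 CPM in ZsGreen-negative libraries (edgeR BH-adjusted p = 0.585).

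The cytoplasmic partners other than Tln2 were not called. Tln1 stood at 904, 1003 and 932 CPM in ZsGreen-positive libraries, against 931, 809, 752, 782 and 949.8 CPM in ZsGreen-negative libraries (edgeR BH-adjusted p = 0.462). Fermt3 stood at 389.9, 339 and 384 CPM in ZsGreen-positive libraries, against 399.8, 409.9, 363, 427 and 379.6 CPM in ZsGreen-negative libraries (edgeR BH-adjusted p = 0.718). Both overlapped. Vcl stood at 44.5, 41.6 and 26.8 CPM in ZsGreen-positive and 36.3, 27.8, 41.3, 30.0 and 36.03 CPM in ZsGreen-negative libraries (edgeR BH-adjusted p = 0.784). Fermt2 stood at 5.199, 5.90 and 8.62 CPM in ZsGreen-positive and 6.02, 3.75, 8.01, 1.16 and 1.99 CPM in ZsGreen-negative libraries (log2 fold change 0.84 ± 0.52 (SE), edgeR BH-adjusted p = 0.498).

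The remaining chains were low in every group. Itga10, a collagen receptor chain, stood at 3.03 to 5.79 CPM in DN3, 3.68 to 6.13 CPM in ZsGreen-positive and 2.31 to 5.59 CPM in ZsGreen-negative libraries, with no call in either comparison. Itga2b stood at 1.18 to 1.55 CPM in DN3, 2.76 to 3.81 CPM in ZsGreen-positive and 1.96 to 5.10 CPM in ZsGreen-negative libraries. Itgb5, a partner of alpha-v, had 5 counts over the DN3 libraries and stood at 2.31 to 5.41 CPM in ZsGreen-positive and 1.25 to 4.13 CPM in ZsGreen-negative libraries. Both were among the genes called lower in DN3 cells, Itga2b with an edgeR BH-adjusted p of 0.00042. Itgb5 passed the filter through lung libraries alone and had to differ, so its call is a description. Itga8 had 1 count over the DN3 libraries, and over summed counts was 43.9-fold lower there than in lung, with a 95% interval from 7.73 to 1751 for counting error only (exact binomial).

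Itga7, Itga11, Itgad, Itgam, Itgb6, Itgb8 and Fermt1 did not pass the filter. Itga7 had 1 count over the DN3 libraries, against 1.29 to 3.75 CPM in ZsGreen-positive and 0.172 to 1.49 CPM in ZsGreen-negative libraries. Itga11 stayed at or under 1.40 CPM, Itgam, the alpha chain of Mac-1, at or under 0.833 CPM, and Itgb6 at or under 1.94 CPM in all libraries, while Itgb8 had 1 count over all of them. Itgad, the alpha-D partner of beta-2, ran the other way. It had 8, 12 and 10 counts in DN3 libraries and 0 counts in each of the 8 lung libraries, at least 25.7-fold higher in DN3 cells, taking 3 counts over the lung libraries as the floor.

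Genes that act with integrins inside the cell were described from a list of 74 adaptors and regulators, of which 69 were tested. In DN3 cells against all lung ILC2, 15 of the 69 were higher and 48 lower, with a median log2 fold change of -0.86, against -0.09 over all genes, of which 36.7% were higher and 42.1% lower. The 6 of smallest p were lower in DN3 cells, each without overlap. Cytip, which binds the beta-2 activator cytohesin-1, averaged 37.8 ± 2.63 CPM in DN3 cells (SD, n = 3) and 639 ± 86.7 CPM in lung ILC2 (SD, n = 8; edgeR BH-adjusted p = 2.71e-18). Cd82, a tetraspanin, averaged 96.8 ± 7.68 and 1081 ± 90.1 CPM in the same groups (edgeR BH-adjusted p = 7.46e-18). Flna, a filamin that binds beta tails at a site overlapping that of talin, averaged 144 ± 3.02 and 878 ± 91.3 CPM (edgeR BH-adjusted p = 7.23e-17). The others were the focal adhesion kinase relative Ptk2b, the actin regulator Vasp and the adaptor Dok2, with log2 fold changes of -2.67, -2.25 and -2.82.

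Between the lung groups 4 of the 69 were higher and 2 lower in ZsGreen-positive ILC2, with a median log2 fold change of 0.05, while 2.35% of all tested genes were higher and 2.18% lower. Fyb1, the adaptor ADAP that links antigen receptor signalling to integrins, averaged 197 ± 14.1 CPM in ZsGreen-positive (SD, n = 3) and 127 ± 16.0 CPM in ZsGreen-negative ILC2 (SD, n = 5; log2 fold change 0.62 ± 0.10 (SE), edgeR BH-adjusted p = 0.000721). The parvins Parva and Parvb, partners of integrin-linked kinase, averaged 6.05 ± 2.13 and 4.08 ± 0.463 CPM in ZsGreen-positive, against 1.65 ± 0.780 and 1.38 ± 0.787 CPM in ZsGreen-negative ILC2 (edgeR BH-adjusted p = 0.00307 and 0.0109). Dock1, an activator of Rac, averaged 33.5 ± 6.11 CPM in ZsGreen-positive and 21.7 ± 1.92 CPM in ZsGreen-negative ILC2 (edgeR BH-adjusted p = 0.00536). Lower in ZsGreen-positive ILC2 were Plaur, the urokinase receptor, at 21.1 ± 4.15 CPM against 34.8 ± 2.50 CPM in ZsGreen-negative ILC2 (edgeR BH-adjusted p = 0.00256), and the kinase Src, at 51.6 ± 4.16 CPM against 70.5 ± 13.9 CPM (edgeR BH-adjusted p = 0.0249). Of these 6, Src overlapped between the groups. The structural cell markers given above moved with the same libraries, and their part in these results was not tested.

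Integrin ligands were described from a list of 44 genes. Of 34 tested, 3 were higher and 28 lower in DN3 cells than in lung ILC2, with a median log2 fold change of -4.34, while 36.7% of all tested genes were higher and 42.1% lower. Ligand genes that passed the filter through lung libraries alone had to differ, so these values are a description. Npnt, which encodes nephronectin, a ligand of alpha-8 beta-1, averaged 2.23 ± 0.131 CPM in DN3 cells (SD, n = 3) and 337 ± 23.7 CPM in lung ILC2 (SD, n = 8; log2 fold change -7.22 ± 0.13 (SE), edgeR BH-adjusted p = 9.54e-22). The LFA-1 ligand Icam1 averaged 11.4 ± 1.07 and 133 ± 11.9 CPM in the same groups, and Tgfb1, whose latent form is a ligand of alpha-v integrins, 77.5 ± 0.454 and 697 ± 68.3 CPM (edgeR BH-adjusted p = 5.28e-18 and 2.83e-17). Lamc1, Adam15 and Mfge8 were lower too, with log2 fold changes of -2.81, -4.11 and -1.69. Between the lung groups, 4 of 33 tested ligands were higher and 0 lower in ZsGreen-positive ILC2, with a median log2 fold change of 0.84, while 2.35% of all tested genes were higher and 2.18% lower. Lama5, a laminin chain, averaged 29.3 ± 2.66 CPM in ZsGreen-positive and 13.7 ± 2.76 CPM in ZsGreen-negative ILC2 (log2 fold change 1.08 ± 0.16 (SE), edgeR BH-adjusted p = 0.000498). The others were Postn, Cdh1 and F11r, with log2 fold changes of 1.44, 1.14 and 1.09. Cdh1 is also among the structural cell markers above, and the part of those cells in the ligand levels was not tested.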

How the data were processed

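RNA of sorted cells was sequenced in bulk, with RNA isolated by PicoPure and libraries made with a Watchmaker mRNA kit, per the labels' protocols. The authors deposited whole-number counts per gene in 2 tables, whose lung columns held the same values. GRCm39 is the build, and DESeq2 the one tool, that the submitters' processing notes name. Aligner, annotation and the use of strand: not given in the sources used here. The labels do not tie the libraries of a group to separate animals. The p-values therefore measure only how libraries of a group spread, which may be technical. Each of the 16 replicate pairs differed beyond sampling noise, with chi-square over its degrees of freedom from 1.77 to 15.3.

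The test on counts was the quasi-likelihood one of edgeR 4.0.16 (R 4.3.3), with TMM scaling, robust dispersions, a minimum count of 10 in filterByExpr, and Benjamini-Hochberg (BH) adjustment over all tested genes at 0.05. The lung fit used 8 libraries with batch as a term (13771 genes). The DN3 fit used all 11 libraries with no batch term (15132 genes), where lung means were weighted by library number. Levels per kilobase used the longest principal transcript of GENCODE M21 (GRCm38), a build other than that of the files, so no gene coordinates are given. Members with a mean of at least 5 CPM in any group were described library by library and the others by ranges, except that Itga8, below that level, was also given by library after its call was seen, and of each list up to 6 called genes of smallest p were named. Members, lists and tests were chosen with earlier results of these data known. Scripts were tested on simulated counts. Alternatives were DESeq2 1.42.0, limma 3.58.1 voom, other scalings, no filter, other terms, and leaving out each library.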

Additional observations from a re-analysis of the deposited data

How the results depend on the processing

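Between the lung groups, 623 genes and 4 of the 25 genes described here were called, and these counts moved with several choices. The count of all genes was 1081 with no filter on low counts, 298 in the September 2024 batch alone, 46 with the structural score as a term, and 286 to 751 with 1 library left out. The count among the 25 was 2 in the September 2024 batch alone, 0 with the structural score, and 1 to 3 with 1 library left out. With DESeq2 740 genes were called and with voom 778. Itga9 was called in 17 of 18 alternatives, Itgb3 in 10 of 18, Tln2 in 9 of 18 and Itga8 in 8 of the 17 that could test it. The 21 genes not called stayed so in all 18. Replicate numbers did not pair the libraries (correlations of -0.14 to 0.08 over 9 pairs with the same number). Each ZsGreen-positive library correlated best with a ZsGreen-negative library of another number (0.162 to 0.195), a hint from the data that the titles do not give, and no fit was made on it. With the replicate block in place of batch 233 genes were called, among them 1 of the 25, Itga9, and Itgav turned to -0.05. With the replicate block in the DN3 fit 11612 genes and 23 of the 25 were called, and Itga6 turned to -0.01.

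Signs that turned were all of genes without a call. The log2 fold change with a structural score in the fit was -0.36 for Itga1, -0.28 for Itga2, 0.00 for Itga3, -0.29 for Itga5, -0.51 for Itga10, -0.21 for Itgae, -0.42 for Itgax, -0.79 for Itgb4, -0.55 for Itgb5, -0.86 for Fermt2 and 0.02 for Fermt3. Itga10 was -0.03 in the September 2024 batch alone. With 1 library left out the values ran from -0.02 to 0.31 for Itga10, -0.06 to 0.18 for Itgae, -0.01 to 0.07 for Itgal, 0.00 to 0.28 for Itgav and -0.46 to 1.13 for Itgax. The cause was not tested.

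In the DN3 comparison 18 of 23 calls held under all 20 alternatives and Itga8 held in the 19 that could test it, while Itga4, Itga9, Itgax and Tln2 each lost their call in at least 1. Itga6 was -0.05 against ZsGreen-positive ILC2 alone and -0.01 without the April 2025 libraries. Itga10 was -0.01 against ZsGreen-positive ILC2 alone and ran from -0.03 (without DN3 library 2) to 0.40 with 1 library left out. Upper-quartile scaling moved the median log2 fold change of all genes from -0.094 to 0.008, and the 23 calls were 4 higher and 19 lower there too. Without division by length the shares in DN3, ZsGreen-positive and ZsGreen-negative libraries were 32.04%, 52.3% and 53.9% for Itgal and 53.1%, 23.9% and 23.2% for Itga4, and for Itgav 1.45% in DN3 and 13.5% in ZsGreen-negative libraries. In the same order of groups they were 54.6%, 11.3% and 10.8% for Itgb1, 8.66%, 17.1% and 17.1% for Itgb2, 2.92%, 20.2% and 26.7% for Itgb3, 32.8%, 0.0762% and 0.0521% for Itgb4, and 0.876%, 51.0% and 45.2% for Itgb7. By the length of all exons joined, an alternative chosen after seeing the data, the shares that moved by over 1 SD were 44.8% for Itgal, 34.9% for Itga4, 1.24% for Itgav and 21.6% for Itgb4 in DN3, 13.7% for Itga4 in ZsGreen-positive, and 65.3% for Itgal in ZsGreen-negative libraries.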
